A study of Homo sapiens with 8 samples.

Results

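Matrix metalloproteinases (MMPs) and tissue inhibitors of metalloproteinases (TIMPs) were described here in U-87MG cells, a long-established line from a human glioblastoma. The set held 7 genes, MMP1, MMP2, MMP3, MMP14, TIMP1, TIMP2 and TIMP3, of the 11822 genes measured under 1 gene symbol, and each of the 7 was read by 1 probe set, the probes that together measure a transcript. Cells had been given 50 µM of I3CA for 24 h (4 arrays), or only its solvent DMSO for 24 h (4 arrays). I3CA, or indole-3-carboxaldehyde, is a product of tryptophan breakdown. All 8 arrays came from the same unmodified line. The labels call the 4 arrays of a group biological replicates and do not say if each came from its own culture. Otherwise the p-values reflect no more than the spread of these samples. I3CA was studied as a possible ligand of AHR, the aryl hydrocarbon receptor, which turns on genes when small molecules bind it, and the question was which genes respond to the treatment. A value from a whole culture cannot tell more cells expressing a gene from more RNA per cell.

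MMPs are zinc-dependent proteases that cut components of the extracellular matrix, the protein network around cells. They are made as inactive precursors whose propeptide has to be removed, and TIMPs bind the active site and block it. MMP14 sits in the cell membrane and activates the MMP2 precursor there, with TIMP2 serving as the bridge between them, so that TIMP2 can promote as well as inhibit MMP2. In gliomas these proteases are known for their part in invasion through brain tissue.

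The upstream promoter sequences of the members are shown because AHR acts on DNA through a short element, the XRE, and because many MMP genes are known to be controlled through AP-1 sites. RefSeq promoter sequences (GRCh38.p14) were used for 3 of the 7 members, MMP14, TIMP1 and TIMP3, and for the further family member MMP7. Those of MMP1, MMP2, MMP3 and TIMP2 were not used here. Each line below gives the 250 bases before the transcription start, 5′ to 3′ on the gene's strand, with matches to the motifs searched in capitals.
MMP14, chr14:22836335-22836584, plus strand: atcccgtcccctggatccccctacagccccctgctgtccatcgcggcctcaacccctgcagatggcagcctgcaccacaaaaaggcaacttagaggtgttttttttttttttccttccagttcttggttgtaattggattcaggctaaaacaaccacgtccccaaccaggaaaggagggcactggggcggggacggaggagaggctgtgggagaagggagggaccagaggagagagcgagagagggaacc
TIMP1, chrX:47582186-47582435, plus strand: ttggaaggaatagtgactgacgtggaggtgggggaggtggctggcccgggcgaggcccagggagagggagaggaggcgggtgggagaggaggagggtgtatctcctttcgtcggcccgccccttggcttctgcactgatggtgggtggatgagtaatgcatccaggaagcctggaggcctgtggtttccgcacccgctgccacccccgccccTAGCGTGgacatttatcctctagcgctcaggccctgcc
TIMP3, chr22:32801455-32801704, plus strand: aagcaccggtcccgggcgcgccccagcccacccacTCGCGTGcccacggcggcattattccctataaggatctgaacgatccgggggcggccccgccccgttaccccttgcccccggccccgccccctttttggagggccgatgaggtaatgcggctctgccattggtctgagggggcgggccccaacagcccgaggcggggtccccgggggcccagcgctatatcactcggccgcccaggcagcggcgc
MMP7, chr11:102530748-102530997, minus strand: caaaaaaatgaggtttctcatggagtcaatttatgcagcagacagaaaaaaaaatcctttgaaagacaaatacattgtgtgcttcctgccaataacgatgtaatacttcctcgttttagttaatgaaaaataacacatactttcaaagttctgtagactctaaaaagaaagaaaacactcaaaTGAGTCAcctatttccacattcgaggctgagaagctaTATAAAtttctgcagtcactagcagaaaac

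The motifs searched on both strands were the XRE core GCGTG, the longer form TNGCGTG that contains it, the AP-1 site TGANTCA and the TATA box TATAAA. TIMP1 held 1 match to TNGCGTG, at 38 to 32 bases before its start, and TIMP3 held 1, at 215 to 209 bases before its start. Of 35116 promoters of the same length, 4.52% held TNGCGTG and 32.2% held GCGTG. MMP7 held 1 AP-1 match, at 67 to 61 bases before its start, and 1 TATA box. AP-1 matches were in 6.57% and TATA boxes in 10.7% of the promoters. None of these letters were in the MMP14 window. A match describes the letters of the window and does not show binding of any factor.

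The values below are log2 expression values, on which a difference of 1 is a doubling, and levels of different probe sets are not set against each other. An array gave no measure of signal over background. Brightness percentiles below place a probe set's mean among all genes as a guide to its signal only, since brightness also depends on the probes, and they give no order of expression. The 7 members lay between percentiles 59.6 and 99.8. Medians of the 8 arrays lay between 8.80 and 8.83. The first principal component, with 24.8% of the variance, set apart both arrays numbered 4, at -16.4 for I3CA replicate 4 and -15.3 for DMSO replicate 4, against -0.39 to 11.2 for the other arrays. MMP1, MMP14, TIMP2, the count over the 7 members and some other values are therefore also given without these 2 arrays. Of the glioma and mesenchymal markers 6 of 12 were measured. VIM, FN1, CD44 and CHI3L1 lay at brightness percentiles 99.9, 99.8, 95.9 and 93.6, and GFAP and NES at 26.7 and 18.9. The mean over the measured markers of each other cell type overlapped between the groups. For the 4 macrophage markers it was 8.52 to 8.80 with I3CA and 8.54 to 8.78 with DMSO. For the 2 endothelial markers it was 8.27 to 8.56 with I3CA and 8.20 to 8.38 with DMSO. Their part in the results was not tested.

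MMP1 had the largest difference of the 7 members and was the only one whose groups did not overlap. MMP1 encodes interstitial collagenase, which cleaves fibrillar collagen. Its log2 expression on replicates 1 to 4 was 9.27, 9.70, 9.38 and 9.51 with I3CA, against 8.28, 8.92, 8.54 and 9.18 with DMSO. All 4 I3CA arrays lay above all 4 DMSO arrays, by a gap of 0.09 between the lowest I3CA array and the highest DMSO array, DMSO replicate 4. The means were 9.46 ± 0.18 with I3CA and 8.73 ± 0.40 with DMSO (SD, n = 4 each), a difference of 0.73 ± 0.18 (SE) or 1.66-fold. The unadjusted 95% interval ran from 1.26-fold to 2.19-fold. MMP1 did not pass the threshold in the limma fit over all genes (adjusted p = 1.00), where its p ranked 20 of 11822. In the exact two-sided permutation test over the 70 assignments of the arrays p was 0.029, the smallest this design can give and the p of every gene whose groups do not overlap. Without both arrays numbered 4 the difference was 0.87, and without DMSO replicate 1, the lowest array, it was 0.58.

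These counts are read against all genes. At an unadjusted p under 0.05 limma called 1.74% of the 11822 genes higher with I3CA and 1.42% lower, and 1 of the 7 members, MMP1, which was higher. Groups that did not overlap were found in 0.964% of genes with I3CA higher and 0.956% with I3CA lower. After adjustment over all genes 1 gene passed (SLC16A6, outside this family and named after its value was seen), 0.00846% of those tested, and 0 of the 7 members did.

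MMP3 encodes stromelysin, a protease of many matrix proteins that can also activate the MMP1 precursor. Its log2 expression on replicates 1 to 4 was 11.56, 11.97, 11.83 and 11.92 with I3CA, against 11.42, 11.92, 11.83 and 11.75 with DMSO. The groups overlapped over most of their range, with I3CA replicates 2 and 4 slightly above every DMSO array. Replicate 1 was the lowest array in both groups. The difference was 0.09 ± 0.13 (SE), with a 95% interval from -0.19 to 0.37 (limma adjusted p = 1.00). Without DMSO replicate 1 it was -0.01, but I3CA replicate 1, the lowest array of its own group, was kept there. A fit without both arrays numbered 1 was not run.

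MMP1 and MMP3 are neighbours in a run of 9 MMP genes on chromosome 11 in the RefSeq annotation, of which MMP7 was also measured here. The differences of these neighbours were unlike each other in size or sign, at 0.73 for MMP1, 0.09 for MMP3 and -0.35 for MMP7, on the log2 scale. Whether the 3 differences themselves differ was not tested.

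**Figure D1:**
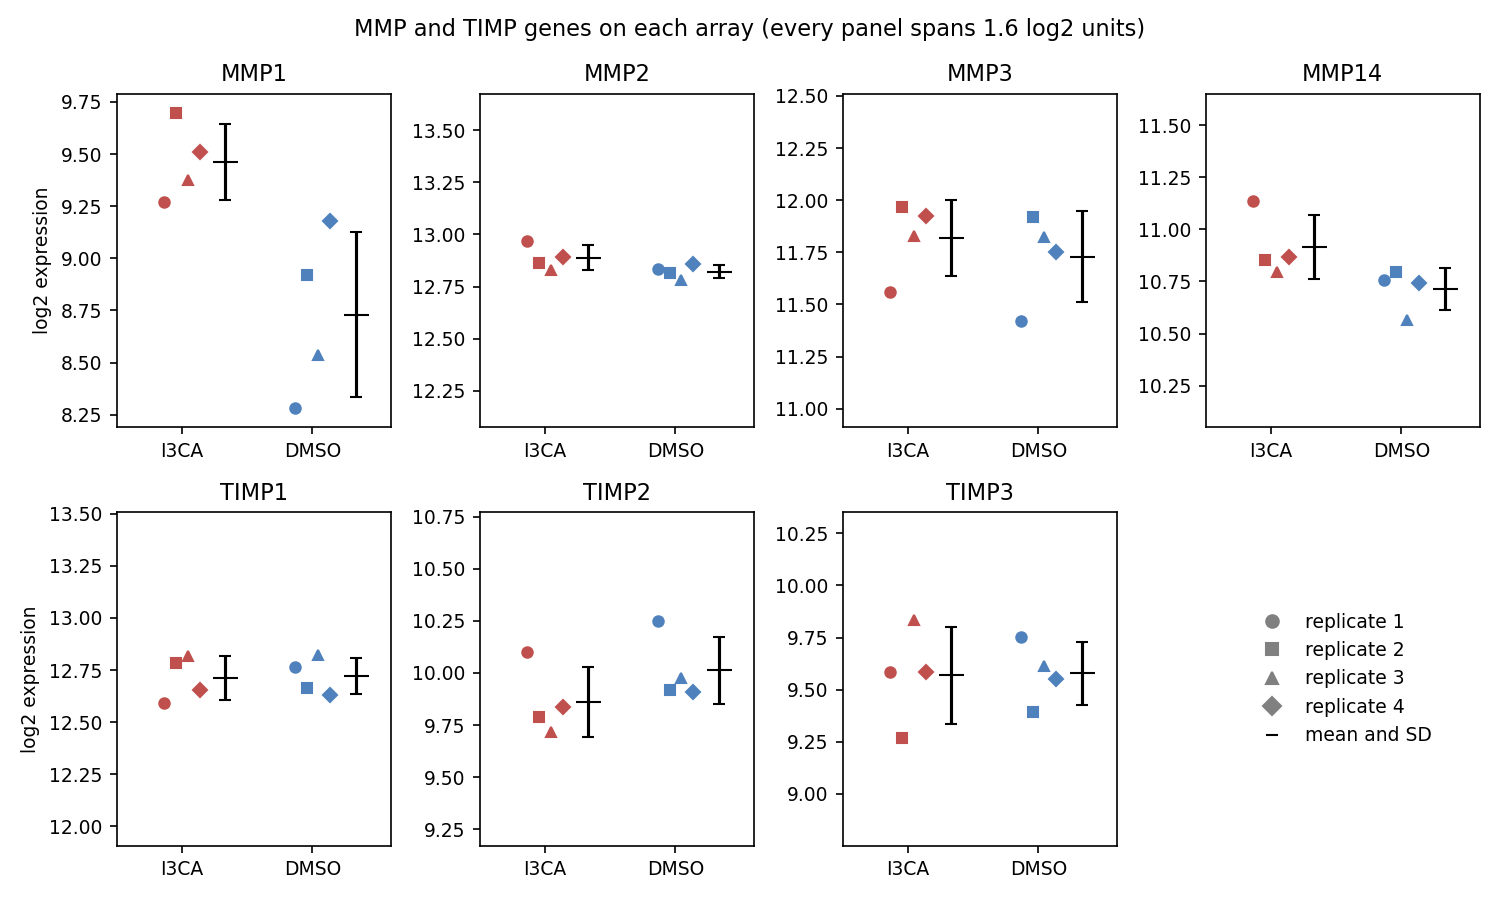
Log2 expression of the 7 members on each array, I3CA in red and DMSO in blue, with symbols for replicates 1 to 4 and, in black, the mean and SD of each group (n = 4). Each panel has its own level but the same height. The MMP1 groups are apart by 0.09 at their nearest arrays, while in the other members they overlap.

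MMP14 and MMP2, the membrane protease and the gelatinase it activates, both had slightly higher means with I3CA. MMP14 on replicates 1 to 4 was at 11.14, 10.85, 10.79 and 10.87 with I3CA, against 10.76, 10.79, 10.56 and 10.74 with DMSO. Of the I3CA arrays, 3 lay above every DMSO array, and I3CA replicate 3 was just below DMSO replicate 2. The difference was 0.20 ± 0.10 (SE), or 1.15-fold, with a 95% interval from -0.02 to 0.41 on the log2 scale (limma adjusted p = 1.00). It was 0.22 without both arrays numbered 4 and 0.12 without I3CA replicate 1, the highest array.

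MMP2 is the gelatinase that degrades denatured collagen and basement membrane collagen. Its log2 expression on replicates 1 to 4 was 12.97, 12.86, 12.83 and 12.89 with I3CA, against 12.83, 12.81, 12.78 and 12.86 with DMSO. Here too 3 I3CA arrays lay above all DMSO arrays, but the values were close together. The difference was 0.07 ± 0.07 (SE), with a 95% interval from -0.09 to 0.22 (limma adjusted p = 1.00). The upper end of that interval is 1.17-fold.

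The TIMP genes had means at or below those of the solvent. TIMP1, a secreted inhibitor of most MMPs, was at 12.59, 12.78, 12.82 and 12.65 on replicates 1 to 4 with I3CA, against 12.76, 12.67, 12.82 and 12.63 with DMSO. The groups covered nearly the same range. The difference was -0.01 ± 0.08 (SE), with a 95% interval from -0.20 to 0.18 (limma adjusted p = 1.00).

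TIMP2 was at 10.10, 9.79, 9.72 and 9.84 on replicates 1 to 4 with I3CA, against 10.25, 9.92, 9.97 and 9.91 with DMSO. Replicate 1 was the highest array of both groups, and the other 3 I3CA arrays lay below every DMSO array. The difference was -0.15 ± 0.11 (SE), with a 95% interval from -0.40 to 0.09 (limma adjusted p = 1.00). It was -0.18 without both arrays numbered 4, -0.07 without DMSO replicate 1 and -0.23 without I3CA replicate 1.

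TIMP3 stays bound to the matrix and also inhibits proteases of the ADAM and ADAMTS families. Its log2 expression on replicates 1 to 4 was 9.59, 9.27, 9.84 and 9.59 with I3CA, against 9.75, 9.39, 9.62 and 9.55 with DMSO. I3CA arrays held both the highest and the lowest value. The difference was -0.01 ± 0.12 (SE), with a 95% interval from -0.28 to 0.27 (limma adjusted p = 1.00). The intervals of TIMP1 and TIMP3 reach 1.13-fold and 1.20-fold at the upper end.

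Over the 7 members 4 had a higher mean with I3CA, the 4 MMPs, and 3 a lower one, the 3 TIMPs. The median difference was 0.07, beside -0.01 over all genes, of which 46.6% had a higher mean with I3CA. Without both arrays numbered 4 the count was again 4 of 7, with a median of 0.06. The directions of MMP3, TIMP1 and TIMP3 changed when single arrays were left out, and that of TIMP3 also with quantile normalization repeated, and the split by family was not tested.

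**Figure D2:**
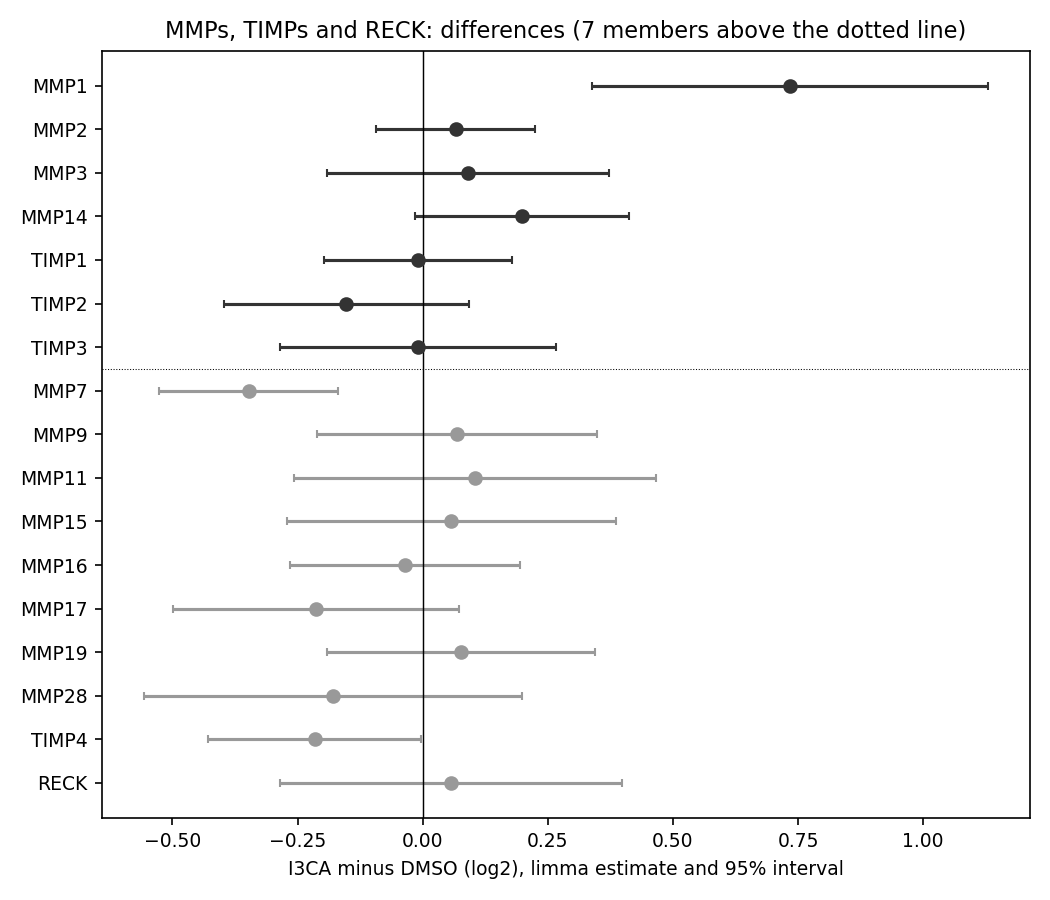
Log2 differences (I3CA minus DMSO) with unadjusted 95% intervals from limma, for the 7 members (above the dotted line) and for the other measured MMPs, TIMP4 and RECK. The intervals of MMP1 (0.34 to 1.13), MMP7 (-0.53 to -0.17) and TIMP4 (-0.43 to -0.0024) lie off 0 before adjustment. Such intervals lay above 0 in 1.74% of all genes and below 0 in 1.42%.

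Of 19 other MMP genes 8 were measured under 1 symbol, and 4 of them had a higher mean with I3CA, with a median difference of 0.01. MMP7, or matrilysin, a small secreted MMP, stood at the lower end. Its log2 expression on replicates 1 to 4 was 8.63, 8.41, 8.49 and 8.61 with I3CA, against 8.87, 8.97, 8.87 and 8.83 with DMSO. All I3CA arrays lay below all DMSO arrays, as in 0.956% of all genes. The difference was -0.35 ± 0.08 (SE), or 1.27-fold lower, and did not pass the threshold (limma adjusted p = 1.00; rank 16 of 11822 by p). It was -0.39 without both arrays numbered 4.

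The other 7 MMPs had overlapping groups. MMP9, the second gelatinase, differed by 0.07 ± 0.13 (SE) at brightness percentile 15.1. MMP11 differed by 0.10 ± 0.16, MMP15 by 0.06 ± 0.15 and MMP19 by 0.08 ± 0.12. On the lower side were MMP17, a membrane-anchored MMP, with -0.21 ± 0.13, MMP28 with -0.18 ± 0.17 and MMP16, another membrane MMP, with -0.04 ± 0.10. MMP28 lay at brightness percentile 2.70, and without DMSO replicate 1, at 8.33, its difference was -0.0013. With single arrays left out MMP11 ran from 0.02 to 0.24 and MMP19 from 0.01 to 0.18. As background, dim probe sets carry more unspecific signal, which shrinks differences.

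Further inhibitors of MMPs were TIMP4 and RECK. TIMP4 was at 9.37, 9.15, 9.39 and 9.16 on replicates 1 to 4 with I3CA, against 9.62, 9.42, 9.34 and 9.55 with DMSO. The I3CA arrays were mostly lower, but DMSO replicate 3 lay among them. Its difference was -0.22 ± 0.10 (SE; limma adjusted p = 1.00), and -0.16 without both arrays numbered 4. RECK, a membrane-anchored inhibitor of MMPs, differed by 0.06 ± 0.15, and by -0.05 without both arrays numbered 4.

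How the members varied from array to array was compared over the 21 pairs of members, as a description over 8 arrays. MMP2 and MMP14 followed each other most closely, with a Pearson r of 0.94 and a Spearman rho of 0.76. Each was among the 3 genes of all 11822 most like the other. After subtracting the group means r was 0.90, and without both arrays numbered 4 it was 0.97. Without the 2 arrays farthest from the MMP2 median, I3CA replicate 1 and DMSO replicate 3, r was 0.58. MMP3 and TIMP2 ran opposite to each other, with r at -0.87 and rho at -0.76. After subtracting the group means r was -0.88, and without both arrays numbered 4 it was -0.87. Without both arrays numbered 1, which were farthest from the MMP3 median, r was -0.27. Leaving out the farthest arrays narrows the range of values, which by itself tends to weaken r. The weaker r without them therefore cannot show what either relation rested on.

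**Figure D3:**
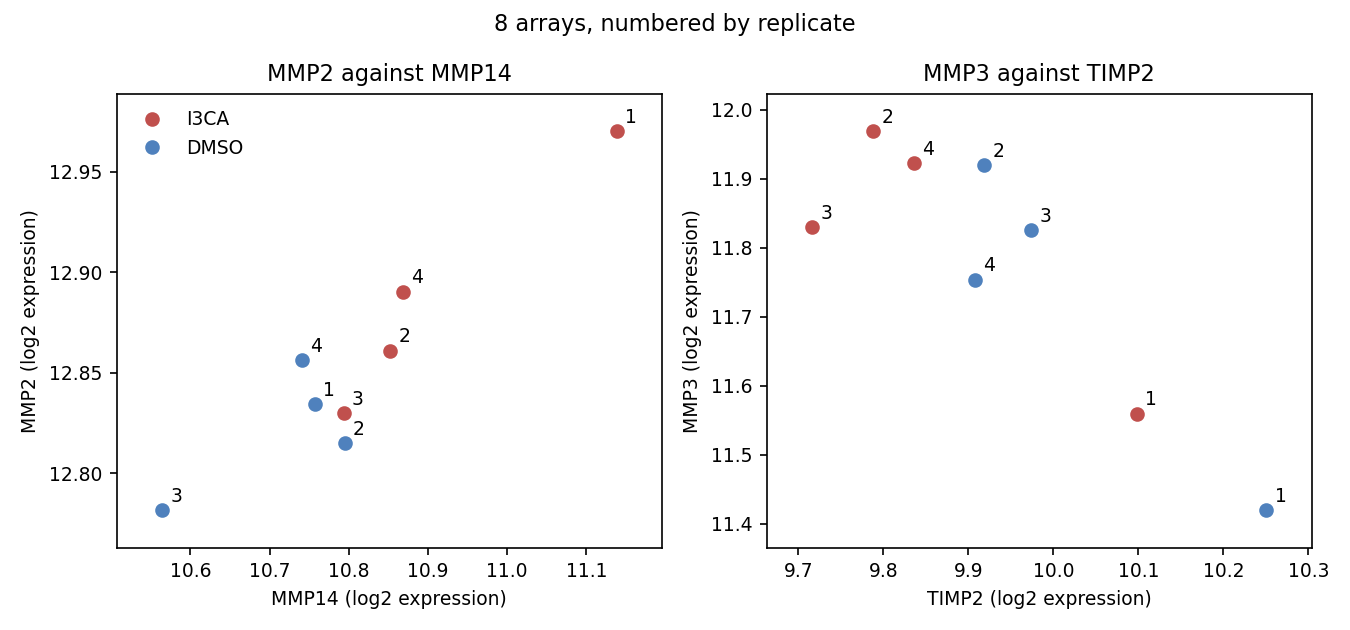
Log2 expression of MMP2 against MMP14 (left) and of MMP3 against TIMP2 (right) on the 8 arrays, I3CA in red and DMSO in blue, numbered by replicate. I3CA replicate 1 lies at the top right on the left side, and both arrays numbered 1 lie at the bottom right on the right side, with r at -0.87 over all arrays and -0.27 without those numbered 1.

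The genes most like each member over the 8 arrays, by Pearson r among all genes with 1 symbol, were then listed. For MMP1 these were DAPK1 (r = 0.97), LPAR2 (r = 0.96) and VPS8 (r = 0.94). For MMP2 they were MAP3K9 (r = 0.95), MMP14 and ACACB (r = 0.93), and for MMP14 they were FBN2 (r = 0.95), SLC17A5 (r = 0.95) and MMP2. MMP3 was most like HEXDC (r = 0.96), CD300E (r = 0.94) and USP16 (r = 0.93). For TIMP1 the genes were CTNNAL1 (r = 0.96), DNAJC19 (r = 0.94) and LARS (r = 0.93). For TIMP2 they were NPNT (r = 0.97), KIAA0930 (r = 0.94) and KIF20A (r = 0.94), and for TIMP3 they were RAB39B (r = 0.99), UBE2L6 (r = 0.97) and CCDC150 (r = 0.95). These are the highest r of all genes over only 8 arrays, and they say nothing of shared function or control.

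TIMP3 also inhibits ADAMTS proteases, secreted enzymes that cut proteoglycans and procollagens. Of 19 ADAMTS genes 12 were measured, and 10 of the 12 had a higher mean with I3CA, with a median difference of 0.24, beside 46.6% of all genes and a median of -0.01. Without both arrays numbered 4 it was 9 of 12, with a median of 0.20. None of the 12 passed the adjusted threshold (0 in limma), and 4 were higher at an unadjusted p under 0.05, beside 1.74% of all genes. The array mean over the 12 was 8.60 to 8.81 with I3CA and 8.35 to 8.57 with DMSO. That mean includes dim probe sets. ADAMTS4, with the largest difference of the list, 0.62 ± 0.32 (SE), lay at brightness percentile 2.76 and ADAMTS17 at 2.63. Both were named after their values were seen.

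ADAMTS5, an aggrecan-cleaving enzyme, was at 9.54, 9.67, 9.64 and 9.45 on replicates 1 to 4 with I3CA, against 9.22, 9.35, 9.34 and 9.02 with DMSO. The groups did not overlap, and the difference was 0.34 ± 0.10 (SE; limma adjusted p = 1.00). ADAMTS1, which cleaves versican and aggrecan, was at 9.88, 10.08, 9.97 and 10.08 with I3CA, against 9.84, 9.82, 9.78 and 9.67 with DMSO. Its groups did not overlap either, as in 0.964% of all genes with I3CA higher, with a difference of 0.23 ± 0.08. ADAMTS14, a procollagen-processing enzyme, differed by 0.32 ± 0.12 and ADAMTS6 by 0.29 ± 0.12, both with overlapping groups. ADAMTS6 was named after its value was seen, as the remaining one of the 4.

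Genes of the ADAM family, of which some but not all encode proteases that release proteins from the cell surface, were also measured. Of 17 genes 12 had a row, 6 of them with a higher mean with I3CA and a median difference of -0.0026. In limma 0 passed over all genes and 1 was higher at an unadjusted p under 0.05, ADAM8, at 0.28 ± 0.10 (SE), beside 1.74% of all genes. ADAM19 differed by 0.22 ± 0.12 and ADAM12 by 0.10 ± 0.09.

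Genes of MMP activation, inhibition and docking had a median difference of 0.03, with 10 of 17 measured genes above 0, and 0 passed in limma over all genes. At an unadjusted p under 0.05, 1 was lower, TIMP4, and 0 were higher, beside 1.42% and 1.74% of all genes. PCSK5, a proprotein convertase with a dim probe set at brightness percentile 8.29, differed by 0.24 ± 0.11 (SE). CTSK, a collagen-degrading cathepsin, differed by -0.16 ± 0.12. Without both arrays numbered 4 PCSK5 differed by 0.39, and with single arrays left out CTSK ran from -0.24 to -0.08.

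**Figure D4:**
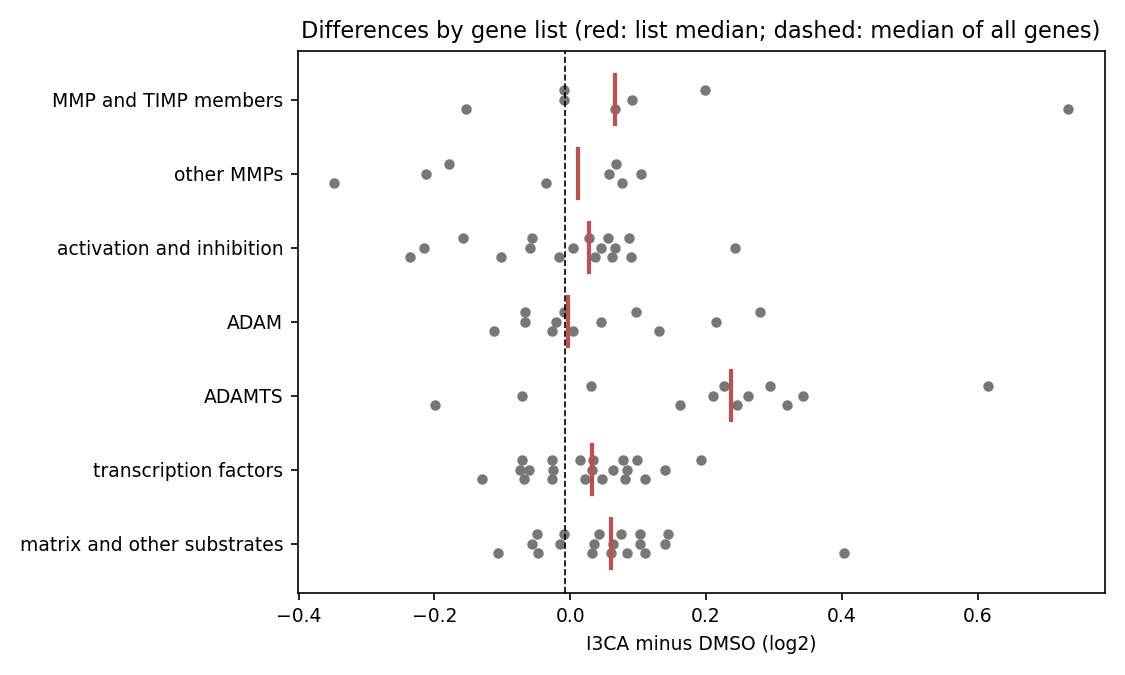
Differences, I3CA minus DMSO on the log2 scale, of every measured gene in 7 lists (grey points), with the list median in red and the median of all genes, -0.01, as a dashed line. The ADAMTS median lies at 0.24, while the other list medians lie between -0.0026 and 0.07.

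**Figure D5:**
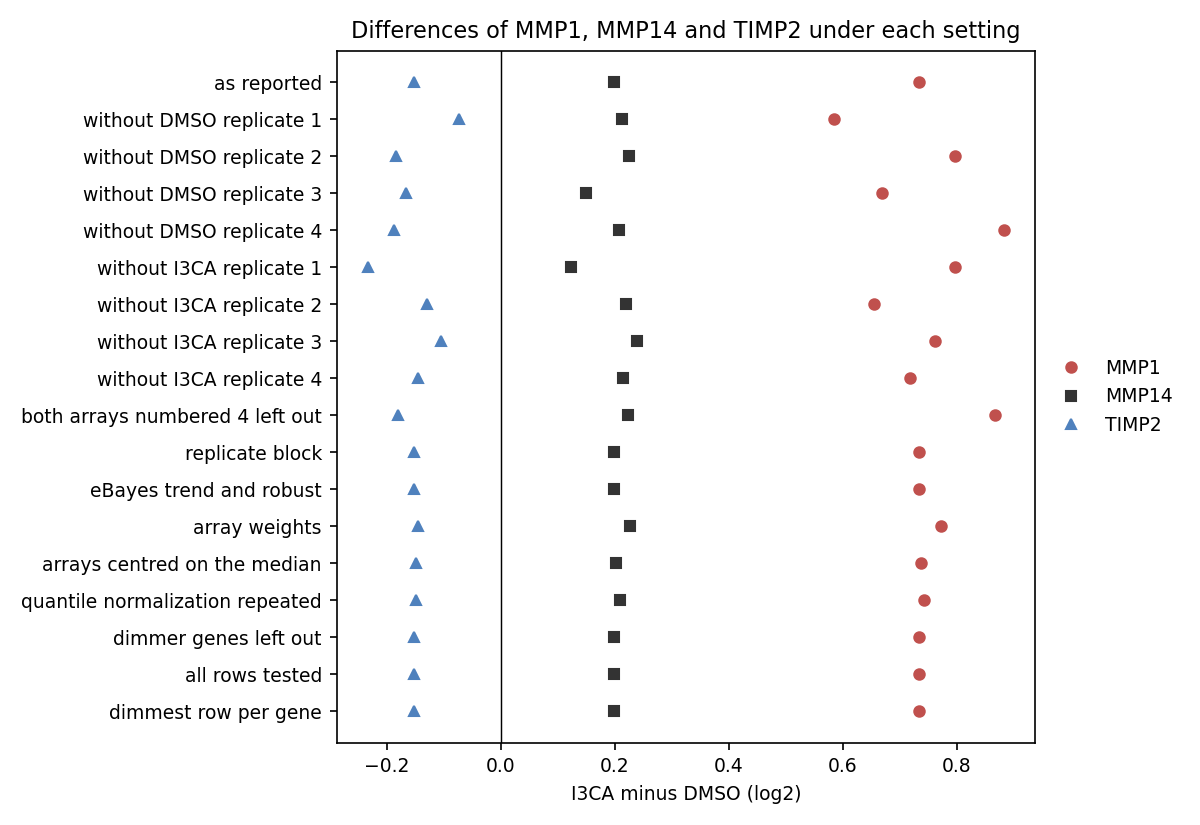
Difference of MMP1 (red circles), MMP14 (black squares) and TIMP2 (blue triangles), I3CA minus DMSO on the log2 scale, as reported and under each alternative. MMP1 stays between 0.58 and 0.88, MMP14 between 0.12 and 0.24 and TIMP2 between -0.23 and -0.07.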

How the data were processed

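The authors deposited 1 table of log2 expression values with 1 value per probe set and array. They were made with the oligo package by RMA, per the submitters' processing notes (background correction, quantile normalization and summary on the log2 scale), without versions. Genome build, row filters and scan batches are not given in the sources used here, so no batch could be tested. Of 13486 rows 11850 had 1 gene symbol in GEO's older platform annotation. The brightest row per gene was kept, leaving 11822 genes. I3CA was compared with DMSO over 8 arrays in limma 3.58.1 (R 4.3.3; lmFit and eBayes, two-sided, no covariate), with Benjamini-Hochberg adjustment over all genes and a threshold of 0.05. The fit was tested on simulated data. Adjusted p-values in the text come from this fit.

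Named were all members, all other measured MMPs, TIMP4, RECK, up to 3 genes by p of the other lists, and the 3 genes most like each member. Members and lists were chosen with earlier results of these data known. Same-numbered arrays deviated together with r of 0.04, 0.07, 0.05 and 0.32, all of them positive. The fit behind the reported values ignores replicate number, and whether equal numbers mark paired cultures was not tested. An alternative fit, the replicate block, allows for replicate number and leaves the differences unchanged. It gave a smaller SE for each of the 7 members, such as 0.12 for MMP1, 0.07 for MMP3, 0.08 for MMP14 and 0.07 for TIMP2. For MMP7 the SE was slightly larger, at 0.085 against 0.081. The number of arrays limits the precision.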

Additional observations from a re-analysis of the deposited data

Results flagged for a closer look

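Among the 64 groups of 4 arrays of the 32 named genes, 3 had an array far off the others relative to that group's range. Chance flags about 1 in 20 groups, here 3.2. None of the 3 (0) were in the 7 members. MMP28 was at 8.33 in DMSO replicate 1, with the other DMSO arrays at 7.58 to 7.66. MMP16 was at 8.52 in the same array, a small step from the others, which lay almost together at 8.46 to 8.47. RECK was at 7.64 in DMSO replicate 4, with the others at 8.16 to 8.27.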

How the results depend on the processing

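The count of genes past the threshold was 1 in limma and 1 in every alternative run, with 0 of the 7 members passing over all genes in any of them. MMP1 kept its direction in 17 of 17 alternatives, between 0.58 and 0.88. Leaving out arrays could not have reversed it, since its groups did not overlap. Several other settings, such as the replicate block, change only its p and not its difference. The adjusted p of MMP1 in limma was 0.43 or more. The lowest came with the replicate block, which gave MMP1 the same 0.73 and a count of 1, and 557 genes at an unadjusted p under 0.05 in place of 374. The exact permutation test gave MMP1, at its difference of 0.73, an unadjusted p of 0.029, which every gene with groups that do not overlap gets. With single arrays left out the differences ran from 0.04 to 0.08 for MMP2, -0.013 to 0.18 for MMP3, 0.12 to 0.24 for MMP14, -0.045 to 0.029 for TIMP1, -0.23 to -0.07 for TIMP2 and -0.098 to 0.091 for TIMP3, and for dimmer family members from -0.0039 to 0.16 for MMP9, -0.045 to 0.18 for MMP15, -0.10 to 0.033 for MMP16 and -0.092 to 0.12 for RECK. TIMP3 was 0.00018 with quantile normalization repeated, and RECK was -0.047 without both arrays numbered 4; the cause was not tested. The table has no signal over background, which limits what dim genes can show.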

Other observations

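Transcription factors known to act on MMP promoters had a median difference of 0.03 over 21 measured genes, 13 of them with a higher mean with I3CA, and 0 passed in limma over all genes. RUNX2, which acts on MMP13 in bone and cartilage, was at 9.61, 9.53, 9.74 and 9.58 on replicates 1 to 4 with I3CA, against 9.44, 9.49, 9.29 and 9.47 with DMSO. It was the 1 gene of the list higher at an unadjusted p under 0.05 (0.19 ± 0.08 SE), beside 1.74% of all genes. CEBPB differed by 0.10 ± 0.08 and ETV4 by -0.13 ± 0.11.

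Matrix proteins and other substrates of MMPs had a median difference of 0.06 over 19 measured genes, 13 of them with a higher mean with I3CA. Without both arrays numbered 4 the median was 0.01 and the count 12. None of the 19 passed the adjusted threshold (0 in limma), and at an unadjusted p under 0.05 there were 0. COL4A2, a basement membrane collagen chain, differed by 0.14 ± 0.09 (SE), LAMB1, a laminin chain, by 0.10 ± 0.09 and SERPINA1, the alpha-1 antitrypsin gene, by 0.40 ± 0.29. With single arrays left out these ran from 0.09 to 0.18 for COL4A2, 0.06 to 0.16 for LAMB1 and 0.22 to 0.61 for SERPINA1.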
